A study of Homo sapiens with 6 samples.

Results

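Amino acid transporters that are best known as targets of the cellular stress response were followed in H226 cells, an established human line of squamous lung carcinoma. The set holds 8 genes, SLC7A11, SLC7A5, SLC3A2, SLC7A1, SLC1A4, SLC1A5, SLC38A1 and SLC38A2, and was chosen by gene name from the 17222 names of the RNA-seq count table. The choice was made with earlier results of these data known. All 8 passed the filter on low counts, which left 14660 genes for testing. Cells were transiently transfected with ASO_LINC#3, an antisense oligonucleotide against the lncRNA SWINGN (LINC00565), or with the control oligonucleotide ASO_CTRL, and were collected after 48 h. Each condition has 3 libraries, so the comparison asks which of these transporter transcripts differ when the lncRNA is targeted. A single antisense sequence against the lncRNA was used in the RNA-seq, and effects of that sequence outside its target cannot be told apart from effects on the target. The level of the lncRNA was not analysed here, and whether it was depleted in these libraries was not checked.

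Cells import amino acids through carriers that differ in their substrates. SLC7A11 exchanges extracellular cystine for glutamate and so feeds glutathione synthesis. SLC7A5 exchanges large neutral amino acids such as leucine, and both SLC7A11 and SLC7A5 reach the plasma membrane as light chains bound to the same heavy chain, SLC3A2. SLC7A1 carries arginine and lysine, SLC1A4 and SLC1A5 exchange small neutral amino acids including serine and glutamine, and SLC38A1 and SLC38A2 take up glutamine and alanine with sodium. When amino acids run short or unfolded proteins build up, kinases phosphorylate the translation factor eIF2α, and the transcription factor ATF4 is then made and binds C/EBP-ATF response elements (CAREs) near many of these genes. NRF2, the factor of the oxidative stress response, acts on SLC7A11 through antioxidant response elements (AREs).

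The libraries held between 3686828 and 10546786 reads assigned to genes, of which 2021 to 3505 came from the 8 transporter genes. Levels are given in CPM, the read count relative to the size of the library, with library sizes scaled by the TMM method. ASO_LINC#3 replicate 3 stood apart. It had the fewest reads, and it differed from the other ASO_LINC#3 libraries by a chi-square of 12.1 and 12.9 per degree of freedom over all genes, against 2.42 between replicates 1 and 2. Its log2 levels also followed the GC content of the genes in the opposite direction to replicates 1 and 2. Mitochondrial transcripts took 3.01% to 3.45% of the reads in ASO_CTRL and 1.85% to 2.01% in ASO_LINC#3, and the part of this difference in the results below was not tested. Of 6 squamous markers 1 could be tested, KRT5, with 103 CPM in ASO_CTRL and 69.0 CPM in ASO_LINC#3, whereas all 7 mesothelial and simple epithelial markers could be tested. Their summed level was 12400 to 13400 CPM in ASO_CTRL and 7290 to 12700 CPM in ASO_LINC#3, and 1 of the 7, CALB2, was called lower, from 601 to 154 CPM, while KRT18, the most abundant, was at 5086 and 3688 CPM and MSLN at 29.1 and 31.1 CPM. Of 6 fibroblast markers 2 were tested, THY1 with 117 and 104 CPM and COL3A1, called lower, with 10.8 and 3.49 CPM. Of 5 blood cell markers 1 was tested, CD68, with 1.37 and 4.13 CPM. The part of these markers in the results below was not tested.

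The annotated starts of the transporter genes were searched for the letters of the stress elements, since the genes are grouped here by their reported response to stress. RefSeq gave 13 start windows for 7 of the 8 genes (all but SLC7A11), each with 250 bases before the start and 50 after it, on GRCh38.p14. The CARE letters TGATGNAA, on either strand, were found in 5 of these windows, which belonged to 5 genes. In all 35116 RefSeq windows of this length the share with a match was 3.62%, and 4.46% of the 27305 genes with a window had a match. The 30 bases around each match are shown 5′ to 3′ in the direction of transcription, with the match in capitals, because they hold the letters common to these genes.
SLC1A4, chr2:64989381-64989410, plus strand: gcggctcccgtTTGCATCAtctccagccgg
SLC3A2, chr11:62881719-62881748, plus strand: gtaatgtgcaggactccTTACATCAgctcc
SLC38A1, chr12:46266502-46266531, minus strand: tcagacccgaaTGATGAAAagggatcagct
SLC7A1, chr13:29595663-29595692, minus strand: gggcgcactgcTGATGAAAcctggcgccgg
SLC1A5, chr19:46784893-46784922, minus strand: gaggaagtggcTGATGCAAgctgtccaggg
In SLC1A4 and SLC3A2 the match is to the reverse complement, TTNCATCA. The first base of the match lay at −7 in SLC1A4, −4 in SLC38A1, 8 in SLC7A1, 38 in SLC3A2 and −97 in SLC1A5, counted from the start of the transcript. The SLC1A5 match belonged to 1 of 3 windows of that gene, and the matches in SLC3A2, SLC38A1 and SLC1A4 also stood in 1 of the several windows of their gene. The windows of SLC7A5 and SLC38A2 held no such letters.

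The ARE letters TGACNNNGC, on either strand, were found in 4 of the 13 windows, against 13.3% of all windows. Those of SLC3A2 and SLC7A1 held both motifs, in no overlap, and are given whole for that reason, in lower case with the matched letters in capitals. In each of these windows the first capital run is the ARE match and the second the CARE match.
SLC3A2, chr11:62881449-62881748, plus strand: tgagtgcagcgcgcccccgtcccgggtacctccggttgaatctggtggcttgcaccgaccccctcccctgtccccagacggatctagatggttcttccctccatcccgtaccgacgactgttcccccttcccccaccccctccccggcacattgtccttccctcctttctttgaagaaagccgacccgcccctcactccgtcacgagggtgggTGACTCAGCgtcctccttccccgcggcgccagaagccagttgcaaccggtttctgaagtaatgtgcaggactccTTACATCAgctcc
SLC7A1, chr13:29595639-29595938, minus strand: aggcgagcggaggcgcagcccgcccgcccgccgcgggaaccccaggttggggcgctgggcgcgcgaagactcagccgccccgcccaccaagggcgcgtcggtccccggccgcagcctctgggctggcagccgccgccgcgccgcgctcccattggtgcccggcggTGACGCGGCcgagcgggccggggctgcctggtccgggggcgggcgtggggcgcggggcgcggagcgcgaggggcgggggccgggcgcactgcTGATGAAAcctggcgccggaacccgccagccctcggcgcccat
The other ARE matches were TGACGCAGC in the SLC7A5 window at −2 and GCGAGGTCA in a window of SLC1A5 at −111. A match of letters is a description of the sequence, and binding was not measured in these libraries.

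Of the 8 transporter transcripts, SLC7A11 rose past both thresholds, which were 0.01 for the adjusted p-value and 0.5 for the size of the log2 fold change. The other 7 did not pass, although each of the 8 had a log2 fold change above 0. The median log2 fold change of the 8 genes was 0.54, whereas it was 0.00 over all tested genes, of which 49.7% were above 0. Across all genes 720 were called higher, a share of 4.91%, and 7.54% were called in either direction. The number called higher was 341, 334 and 249 without ASO_CTRL replicates 1, 2 and 3, and 312, 394 and 1430 without ASO_LINC#3 replicates 1, 2 and 3. None of the 8 genes was called lower by edgeR, DESeq2 or limma-voom, and 0 were below 0 at an unadjusted p under 0.05 by any of these tools. Above 0 at that level were 7 of the 8 genes by edgeR, against 17.1% of all genes, 6 by DESeq2 and 7 by limma-voom. For 6 of the 8 genes all 3 ASO_LINC#3 libraries lay above all 3 ASO_CTRL libraries. The libraries of the conditions did not overlap, in either direction, for 36.1% of all genes. The share of all genes with ASO_LINC#3 above was not computed. The summed level of the 8 genes was 360, 396 and 334 CPM in the ASO_CTRL libraries and 515, 507 and 548 CPM in the ASO_LINC#3 libraries. SLC3A2 alone made up 47.4% to 49.6% of that sum in ASO_CTRL and 43.5% to 45.6% in ASO_LINC#3. In bulk RNA, a change in the number of cells that express a gene and a change in its RNA per cell cannot be told apart.

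**Figure D1:**
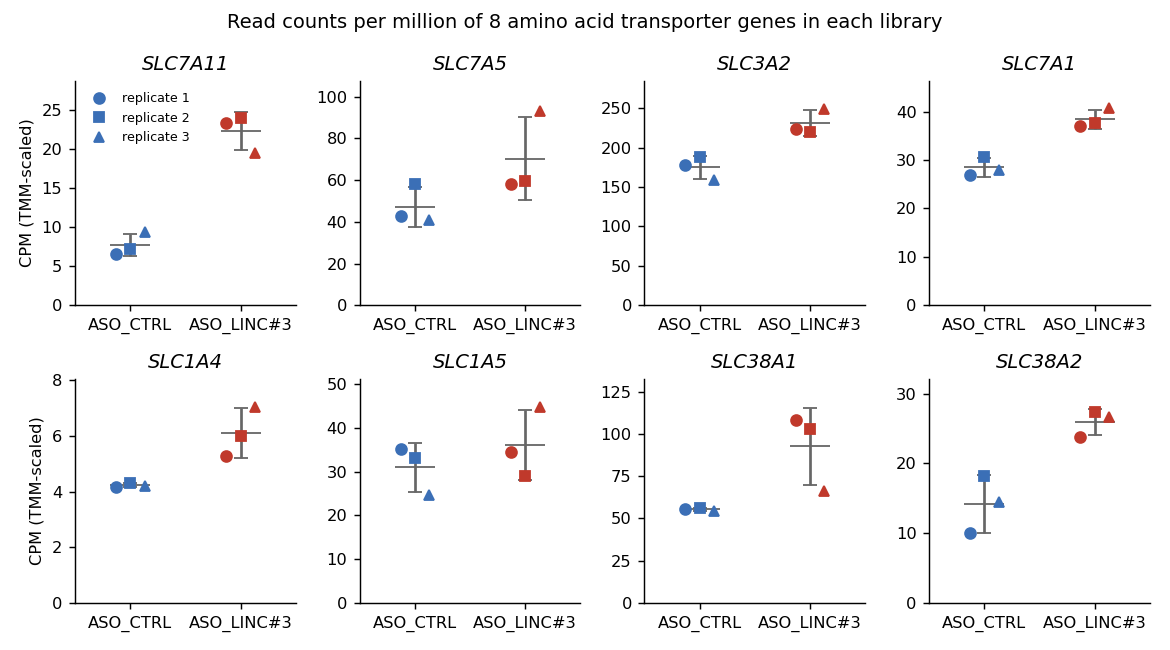
Level of each transporter gene in CPM (vertical axis, starting at 0 and different for each gene) in the 3 ASO_CTRL libraries (blue) and the 3 ASO_LINC#3 libraries (red), with replicates 1, 2 and 3 as circle, square and triangle and grey bars for the mean ± SD. The conditions are apart for 6 genes and overlap for SLC7A5 and SLC1A5, and ASO_LINC#3 replicate 3 is the highest library for SLC7A5, SLC3A2, SLC7A1, SLC1A4 and SLC1A5 but the lowest of the ASO_LINC#3 libraries for SLC7A11 and SLC38A1.

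SLC7A11, the cystine carrier on chromosome 4 (GRCh37 chr4:139085251-139163503, minus strand), had 6.60, 7.23 and 9.35 CPM in the ASO_CTRL libraries and 23.4, 24.0 and 19.5 CPM in the ASO_LINC#3 libraries. The lowest ASO_LINC#3 library was thus above the highest control. The mean level was 7.73 ± 1.44 CPM in ASO_CTRL and 22.3 ± 2.41 CPM in ASO_LINC#3 (SD, n = 3), and the fitted change was 2.86-fold. On the log2 scale the change was 1.52 ± 0.19 (SE), with a Benjamini-Hochberg adjusted p = 0.000567 (edgeR, quasi-likelihood F-test), and it ranked 271 of 14660 genes by its size above 0. Relative to the mean of the controls, the log2 level of the ASO_LINC#3 libraries was higher by 1.58, 1.61 and 1.32. These values rest on 42 to 98 reads in the ASO_CTRL libraries and 72 to 159 reads in the ASO_LINC#3 libraries. SLC7A11 was called in every fit with another tool, scaling, filter or threshold and without each library in turn. Of the 50-base windows of its longest transcript, 0.969% also occur in transcripts of other genes. Exons of the antisense gene SLC7A11-AS1 cover 8.97% of the SLC7A11 exons on the opposite strand, and without a stated strand setting the reads of both genes cannot be told apart there.

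SLC3A2, the heavy chain that SLC7A11 and SLC7A5 share (GRCh37 chr11:62623476-62656352, plus strand), was the most abundant of the 8 transcripts. Its level was 179, 188 and 159 CPM in the ASO_CTRL libraries and 224, 221 and 250 CPM in the ASO_LINC#3 libraries, so that the conditions did not overlap. The log2 fold change of SLC3A2 was 0.40 ± 0.13 (SE), with a fold of 1.32 and an edgeR adjusted p = 0.0479, which misses the threshold of 0.01.

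SLC7A5, the leucine exchanger (GRCh37 chr16:87863629-87903113, minus strand), had 42.7, 58.3 and 40.8 CPM in ASO_CTRL and 58.2, 59.7 and 93.3 CPM in ASO_LINC#3. The second control lay at the level of the lower ASO_LINC#3 libraries, and ASO_LINC#3 replicate 3 was far above the other libraries. The log2 fold change of SLC7A5 was 0.57 ± 0.21 (SE) and did not pass the test (edgeR adjusted p = 0.0843). Without ASO_LINC#3 replicate 3 it was 0.33. Of the 50-base windows of the longest SLC7A5 transcript, 4.08% also occur in other annotated genes, among them the pseudogenes SLC7A5P1 and SLC7A5P2. The row of SLC7A5P1 held 0 to 7 reads per library.

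**Figure D2:**
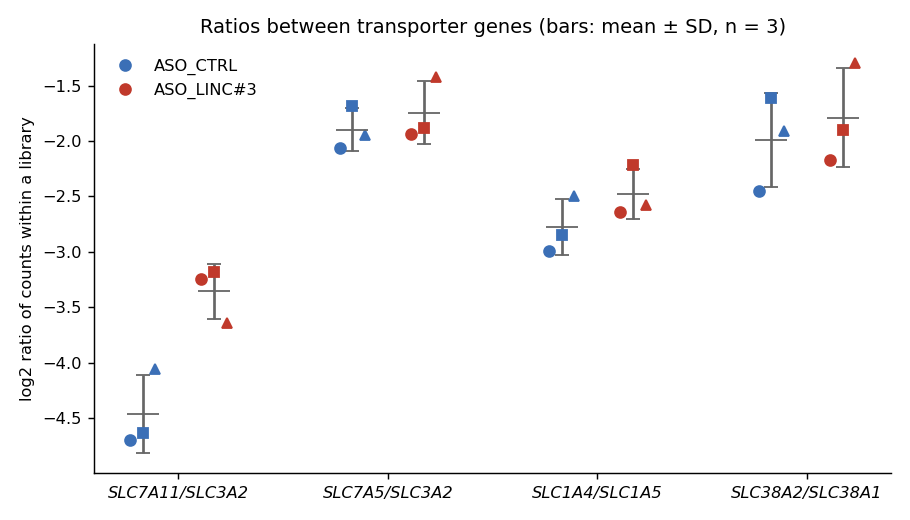
Log2 ratio of the read counts of a pair of transporter genes within the same library (vertical axis), for ASO_CTRL (blue) and ASO_LINC#3 (red), with replicates 1, 2 and 3 as circle, square and triangle and bars for the mean ± SD. SLC7A11/SLC3A2 is the only pair whose conditions do not overlap, from −4.70 to −4.06 in ASO_CTRL and from −3.64 to −3.18 in ASO_LINC#3.

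Ratios within a library do not depend on the scaling between libraries, and 4 pairs were compared. SLC7A11 had 3.70, 3.85 and 5.90 reads per 100 reads of its heavy chain SLC3A2 in the ASO_CTRL libraries and 10.4, 10.9 and 7.82 in the ASO_LINC#3 libraries. The light chain of the cystine carrier thus changed more than the heavy chain in all 3 ASO_LINC#3 libraries. The log2 ratio rose from −4.46 ± 0.36 to −3.36 ± 0.25 (SD, n = 3), a difference of 1.11. The exact permutation p was 0.1 (two-sided), the smallest that 3 against 3 libraries allow, and 0.4 after adjustment over the 4 pairs. For SLC7A5, the other light chain, the figures were 23.9, 31.0 and 25.8 reads per 100 reads of SLC3A2 in ASO_CTRL and 26.0, 27.1 and 37.4 in ASO_LINC#3. These overlapped, with a difference in log2 ratio of 0.15 (exact permutation p = 0.5, adjusted 0.6), which turned to −0.01 without ASO_LINC#3 replicate 3. The difference in log2 ratio was 0.30 for SLC1A4/SLC1A5 (exact permutation p = 0.3, adjusted 0.6) and 0.20 for SLC38A2/SLC38A1 (exact permutation p = 0.6, adjusted 0.6), with overlap in both. The SLC38A2/SLC38A1 difference was −0.05 without ASO_LINC#3 replicate 3 and −0.03 without ASO_CTRL replicate 1.

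SLC7A1, which carries cationic amino acids (GRCh37 chr13:30083551-30169825, minus strand), was at 26.9, 30.6 and 27.95 CPM in ASO_CTRL and at 37.0, 37.7 and 40.7 CPM in ASO_LINC#3, without overlap. The log2 fold change of SLC7A1 was 0.43 ± 0.14 (SE), a fold of 1.35, and it did not pass the test (edgeR adjusted p = 0.0527).

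SLC1A4 (GRCh37 chr2:65215611-65250999, plus strand) and SLC1A5 (GRCh37 chr19:47278140-47291851, minus strand) exchange small neutral amino acids, and SLC1A5 is a main route for glutamine. SLC1A4 was at 4.18, 4.30 and 4.197 CPM in ASO_CTRL and at 5.29, 5.99 and 7.05 CPM in ASO_LINC#3. The conditions did not overlap, but each library held only 25 to 44 reads of it. The control SD of SLC1A4 was 1.60% of the mean, below the 17.3% that counting error alone gives at that depth. Its log2 fold change of 0.51 ± 0.23 (SE) did not pass the test (edgeR adjusted p = 0.145). SLC1A5 was at 35.2, 33.2 and 24.6 CPM in ASO_CTRL and at 34.5, 29.1 and 44.7 CPM in ASO_LINC#3. The groups overlapped, and ASO_LINC#3 replicate 2 was below the mean of the controls. The log2 fold change of SLC1A5 was 0.22 ± 0.20 (SE; edgeR adjusted p = 0.484), with a 95% confidence interval from −0.22 to 0.65, and it was 0.05 without ASO_LINC#3 replicate 3. An opposite-strand lncRNA covers 23.4% of the SLC1A5 exons.

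SLC38A1 (GRCh37 chr12:46576846-46663800) and SLC38A2 (GRCh37 chr12:46751971-46766556), sodium-coupled carriers of glutamine and alanine, lie on the minus strand of the same chromosome with 88170 bp between them. SLC38A1 was at 55.5, 56.3 and 54.6 CPM in ASO_CTRL and at 109, 103 and 66.4 CPM in ASO_LINC#3. All ASO_LINC#3 libraries were above the controls, with replicate 3 much nearer to them than replicates 1 and 2. SLC38A2 was at 9.97, 18.2 and 14.4 CPM in ASO_CTRL and at 23.8, 27.4 and 26.6 CPM in ASO_LINC#3, again without overlap. The log2 fold change was 0.75 ± 0.18 (SE; edgeR adjusted p = 0.0165) for SLC38A1 and 0.87 ± 0.21 (SE; edgeR adjusted p = 0.0181) for SLC38A2. Both missed the threshold of 0.01 and had the largest changes of the set after SLC7A11. With an adjusted p below 0.05 in place of 0.01, 3 of the 8 genes were called higher, SLC7A11, SLC38A1 and SLC38A2, against 9.70% of all genes. The same 3 were called with DESeq2, which called 6.57% of all genes higher.

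**Figure D3:**
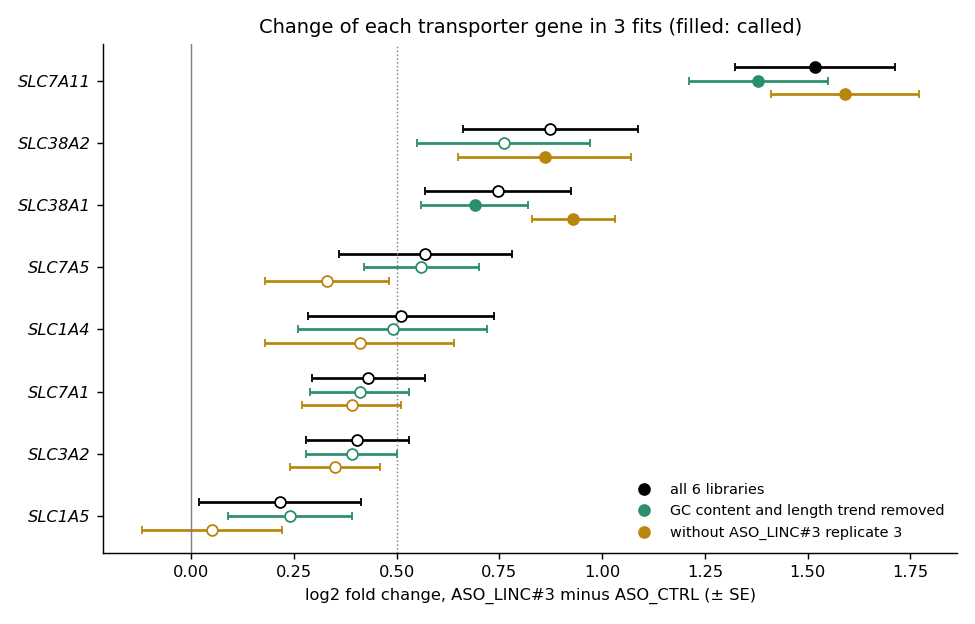
Log2 fold change of each transporter gene, ASO_LINC#3 minus ASO_CTRL (horizontal axis), with bars of ± 1 SE, in the fit of all 6 libraries (black), after removal of the trend on GC content and length (green) and without ASO_LINC#3 replicate 3 (ochre). Filled points passed both thresholds, the solid line marks 0 and the dotted line 0.5. SLC7A11 passes in all 3 fits, between 1.38 and 1.59, and all values of the other genes are above 0.

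The GC content of the transporter genes ranges from 35.4% in SLC7A11 to 61.3% in SLC1A5, and ASO_LINC#3 replicate 3 was below replicates 1 and 2 for SLC7A11 and SLC38A1 and above them for SLC7A5 and SLC1A5. SLC38A2 and SLC1A4 did not follow this order, since replicate 3 lay between the other libraries for SLC38A2 (0.77, 0.97 and 0.93) and was the highest for SLC1A4 (0.31, 0.48 and 0.70). Over all genes with an annotated length, the trend at the GC content and length of SLC7A5 and SLC1A5 was higher by 0.27 and 0.29 in this library on the log2 scale, and at those of SLC7A11, SLC38A1 and SLC38A2 it was lower by 0.21, 0.20 and 0.21. After the trend of each library was removed, the log2 changes of the ASO_LINC#3 libraries came to 1.35, 1.34 and 1.48 for SLC7A11. They came to 0.44, 0.53 and 0.72 for SLC7A5 and to 0.82, 0.74 and 0.44 for SLC38A1. The 3 ASO_LINC#3 libraries thus lay closer together for these genes than before, but not for SLC1A4, at 0.25, 0.43 and 0.77, nor for SLC38A2, at 0.55, 0.70 and 1.08. In that fit 2 of the 8 genes were called higher, SLC7A11 with 1.38 (edgeR adjusted p = 0.000184) and SLC38A1 with 0.69 (edgeR adjusted p = 0.00252), against 6.85% of all genes. The conditions then did not overlap for 7 of the 8 genes, all but SLC1A5, against 39.2% of all genes. SLC38A2, the other gene of low GC content, had 0.76 in that fit (edgeR adjusted p = 0.0241). Without ASO_LINC#3 replicate 3 the call was made for SLC7A11 at 1.59 (edgeR adjusted p = 8.07e-05), SLC38A1 at 0.93 (edgeR adjusted p = 6.94e-05) and SLC38A2 at 0.86 (edgeR adjusted p = 0.00918), where 9.42% of all genes were called higher.

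**Figure D4:**
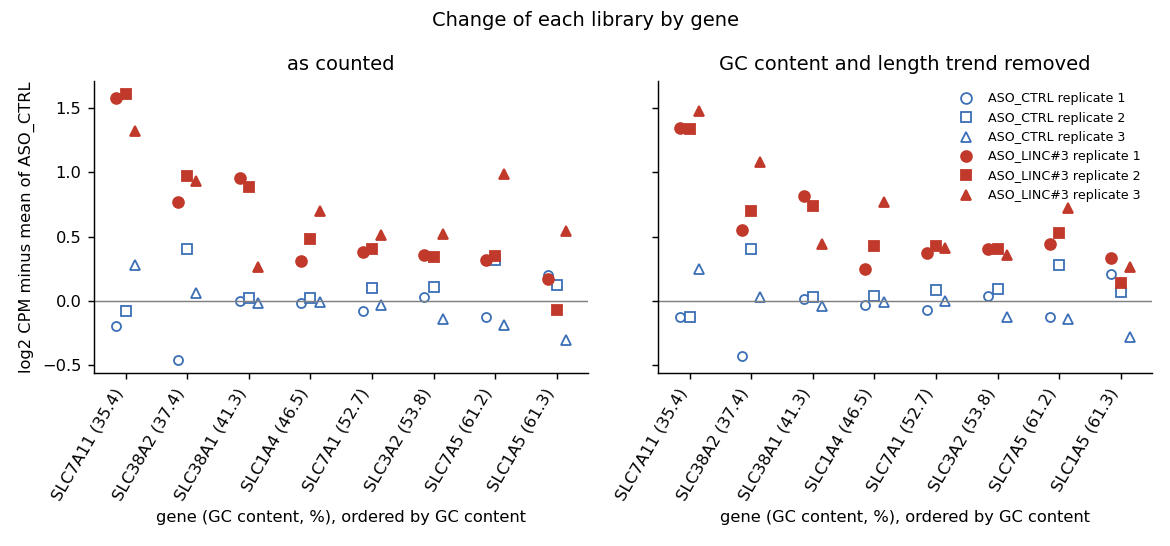
Log2 CPM of each library minus the mean of the ASO_CTRL libraries (vertical axis) for each transporter gene, ordered by GC content (horizontal axis, in percent), as counted (left) and with the GC content and length trend of every library taken out (right). Open blue symbols are ASO_CTRL, filled red symbols ASO_LINC#3, and shapes are replicates. ASO_LINC#3 replicate 3 (triangle) is below replicates 1 and 2 for SLC7A11 and SLC38A1 and above them for SLC7A5 and SLC1A5 on the left, and for SLC7A11 it is above them on the right, at 1.48.

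Per kilobase of merged exons, the order of the mean levels was the same in both conditions. Per kilobase of the longest transcript SLC1A5 came before SLC7A5 in ASO_CTRL and SLC38A2 before SLC7A1 in ASO_LINC#3, and SLC3A2 was at 61.5 CPM per kb in ASO_CTRL and 81.4 in ASO_LINC#3. With merged exons SLC3A2 stood first with 27.4 ± 2.35 CPM per kb in ASO_CTRL and 36.2 ± 2.48 CPM per kb in ASO_LINC#3 (SD, n = 3). It was followed by SLC7A5 with 9.93 ± 2.02 and 14.8 ± 4.16 CPM per kb and SLC1A5 with 9.30 ± 1.68 and 10.8 ± 2.38 CPM per kb. The ranges of these latter genes overlapped in both conditions, so their order is not resolved. SLC38A1 had 5.54 ± 0.0852 and 9.24 ± 2.28 CPM per kb, SLC7A1 3.71 ± 0.248 and 5 ± 0.253, and SLC38A2 2.18 ± 0.636 and 3.98 ± 0.288. SLC7A11, with 0.801 ± 0.149 CPM per kb in ASO_CTRL, and SLC1A4, with 0.609 ± 0.00976, were the least abundant. In ASO_LINC#3 they were at 2.31 ± 0.25 and 0.880 ± 0.128 CPM per kb. The cDNA was primed with oligo-dT, so a level per length may differ from the number of transcripts.

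Among the 28 pairs of the 8 genes, the correlation of log2 CPM over the 6 libraries ranged from 0.04 for SLC1A5 with SLC38A1 to 0.95 for SLC3A2 with SLC7A1, with a median of 0.80. The libraries share condition, depth and GC trend, so these are given as descriptions. Over 10214 genes with at least 50 reads on average, CAPRIN2 and MAST4 had the pattern most like that of SLC7A11, with a Pearson r of 0.999 and 0.998 over the 6 libraries and log2 fold changes of 0.80 and 0.89.

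The regulators of the stress response were listed separately. This list and those below were chosen with earlier results of these data known, so their counts are descriptions. Of 17 core regulators of the integrated stress response (ISR), all tested, 4 rose and none fell. The shares over all genes were 4.91% called higher and 2.63% called lower. The median log2 fold change of these regulators was 0.10. At an unadjusted p under 0.05, 1 was lower by edgeR and limma-voom and 0 by DESeq2, and neither DESeq2 nor limma-voom called any lower. The 4 were ATF3 (24.7 ± 0.47 to 89.6 ± 7.35 CPM; log2 fold change 1.85), DDIT3 (61.9 to 190 CPM; 1.61), PPP1R15A (45.0 to 118 CPM; 1.39) and TRIB3 (43.5 to 109 CPM; 1.32). DDIT3 encodes the factor CHOP, and PPP1R15A, named after its values were seen, directs dephosphorylation of eIF2α. The ATF4 transcript was at 90.0, 82.6 and 83.1 CPM in ASO_CTRL and at 116, 126 and 180 CPM in ASO_LINC#3. These values do not overlap, but the change of 0.72 ± 0.17 (SE) missed the threshold (edgeR adjusted p = 0.0150), and ATF4 protein was not measured in these libraries. Without ASO_LINC#3 replicate 3 the count of called regulators was 7, in a fit that called 17.2% of all genes in either direction.

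Of 17 other ATF4 targets, most of them genes of amino acid metabolism, 16 were tested. DDIT4, STC2, SESN2 and VLDLR were listed with them though they are not genes of amino acid metabolism. Of the 16 tested genes, 8 rose and none fell, against 4.91% of all genes called higher and 2.63% called lower. The list was chosen with earlier results of these data known, so this is a description. The median of the list was 0.50. DESeq2 and limma-voom also called none lower, and 1 was lower at an unadjusted p under 0.05 by each of the 3 tools. ASNS, the asparagine synthetase, was at 15.0 ± 0.54 CPM in ASO_CTRL and 35.6 ± 3.48 CPM in ASO_LINC#3 and changed by 1.25 on the log2 scale (edgeR adjusted p = 0.000448). CHAC1, which degrades glutathione, had the largest change of the list, 2.46, at the low level of 1.02 CPM in ASO_CTRL and 5.78 CPM in ASO_LINC#3. DDIT4, an inhibitor of mTORC1, changed by 2.19 from 92.6 to 422 CPM. STC2 (1.89), SESN2 (1.15), MTHFD2 (0.98), PSAT1 (0.97) and SHMT2 (0.67) were the other called genes. CHAC1, SESN2, MTHFD2, PSAT1 and SHMT2 were named after their values were seen. The called genes of this list spanned 0.67 to 2.46, and of the 8 transporter genes SLC7A11 (1.52), SLC38A2 (0.87) and SLC38A1 (0.75) had values within that span. Without ASO_CTRL replicate 3 the count of called genes in this list was 4, in a fit that called 359 of all genes.

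**Figure D5:**
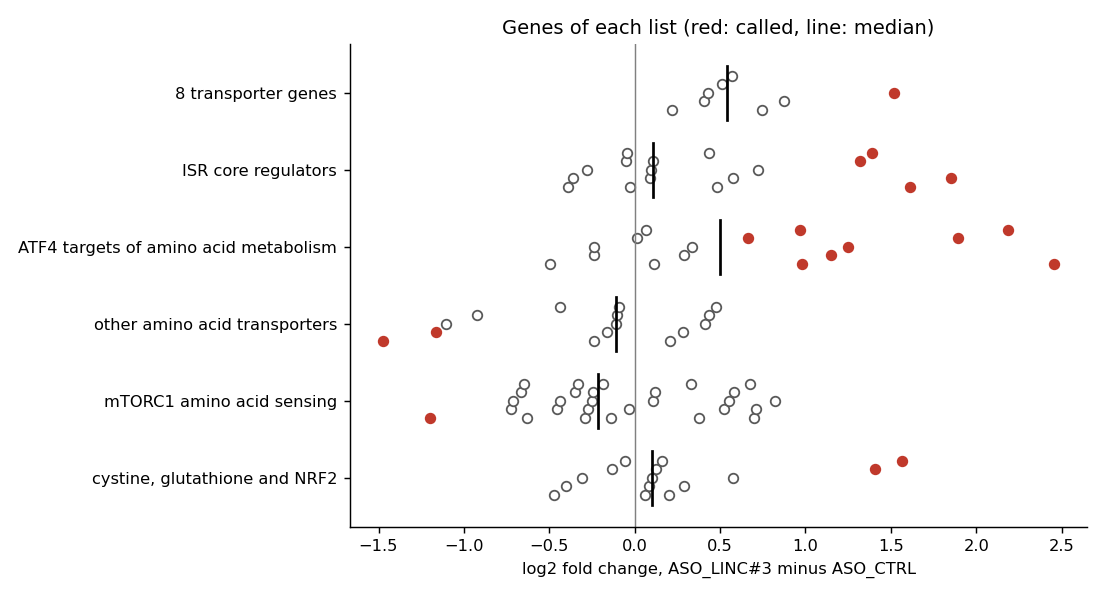
Log2 fold change, ASO_LINC#3 minus ASO_CTRL (horizontal axis), of each tested gene of the 8 transporter genes and of 5 lists of related genes (rows). Red points passed both thresholds, open points did not, the black line is the median of the row, and the vertical position within a row only separates the points. The transporter genes have a median of 0.54 and the ATF4 targets 0.50, and the called genes of the other amino acid transporters lie below 0.

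Of 30 other amino acid transporters of the same and related families 15 were tested. None rose and 2 fell, against 4.91% of all genes called higher and 2.63% called lower. The median of these 15 was −0.11, with 5 values above 0. DESeq2 and limma-voom also called none higher, and 1 was higher at an unadjusted p under 0.05 by each of the 3 tools. By edgeR 17.1% of all genes were higher at that level. SLC7A7, a light chain of SLC3A2 that exports arginine, had 194, 212 and 203 CPM in ASO_CTRL and 73.8, 63.7 and 82.4 CPM in ASO_LINC#3. Its log2 fold change was −1.47 ± 0.14 (SE; edgeR adjusted p = 8.3e-05). SLC1A3, a glutamate and aspartate carrier, went from 131 ± 6.75 to 58.4 ± 2.45 CPM, with a log2 fold change of −1.16 (edgeR adjusted p = 0.000197). In both genes all ASO_LINC#3 libraries were below all controls. The summed level of the 15 tested transporters was 577 to 604 CPM in ASO_CTRL and 374 to 412 CPM in ASO_LINC#3. SLC7A7 and SLC1A3, the most abundant of the 15 in ASO_CTRL, enter this sum, and the sum without them was not computed.

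Genes around the substrates of the carriers were also listed. In the list of cystine, glutathione and NRF2 genes 2 of 15 tested rose and none fell. Over all genes 4.91% were called higher and 2.63% lower. None of this list was called lower by DESeq2 or limma-voom. At an unadjusted p under 0.05 by edgeR, 3 of the list were higher and 2 lower, against 17.1% of all genes higher. The share of all genes lower at that level was not computed. The called genes of the list were HMOX1, the haem oxygenase, from 14.3 to 38.1 CPM (1.41), and BACH1, a repressor of HMOX1, from 11.6 to 34.2 CPM (1.57). NFE2L2, which encodes NRF2, had a log2 fold change of 0.10 (edgeR adjusted p = 0.705), and KEAP1, its inhibitor, −0.48 (edgeR adjusted p = 0.0693). ODC1, the ornithine decarboxylase, which uses ornithine made from arginine, rose from 281 to 557 CPM (0.99). Of 28 tested genes in the list of amino acid sensing by mTORC1 none rose and 1 fell, against 2.63% of all genes called lower. The gene that fell was LAMTOR1, a lysosomal anchor of the complex, from 215 to 94.0 CPM (−1.20). SESN2 was counted among the ATF4 targets and not in this list, and it was called higher (1.15). In the mTORC1 list DESeq2 called 1 higher and 2 lower and limma-voom none higher and 1 lower. At an unadjusted p under 0.05 by edgeR, 7 of the list were higher and 5 lower, against the same 17.1% of all genes higher. Without ASO_LINC#3 replicate 3 the number of called genes was 5 in the NRF2 list and 8 in the mTORC1 list, while the share called over all genes was 17.2% in place of 7.54%. Without any other library the NRF2 list had 1 called gene, except that it had 2 without ASO_LINC#3 replicate 2.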

How the data were processed

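Total RNA of H226 cells (so named in the labels, whereas the RNA-seq methods name BJ fibroblasts) was reverse transcribed with oligo-dT primers and sequenced, and the authors aligned the reads to hg19 with STAR and deposited raw counts per gene name, without normalization or pooling. How reads were counted (tool, annotation and strand) is not given in the sources used here. Reads assigned to no gene (24.8% to 28.1% of each library) entered neither library sizes nor tests. The labels gave conditions and replicate numbers but do not say whether replicates were separate cultures. A general statement of the study gives its experiments as biological triplicates, and p-values measure the spread between these libraries.

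Counts were filtered with filterByExpr, scaled by TMM and tested with edgeR 4.0.16 (R 4.3.3; quasi-likelihood F-test, all 6 libraries, no block), with Benjamini-Hochberg adjustment over all 14660 genes. Genes were called at an adjusted p below 0.01 and an absolute log2 fold change above 0.5, the thresholds of the study. The common biological coefficient of variation was 0.159. Log2 CPM used a prior count of 2. Ratios were tested by exact permutation. Gene positions, lengths and GC content came from the GENCODE annotation of GRCh37, matched by current name for 13370 of 17222 names and by an older symbol for 964; 87.2% of the tested genes had a length. The trend of each library on GC content and length (splines with 5 degrees of freedom) was removed through offsets. Start windows came from RefSeq. The code was tested on simulated counts. Alternatives used DESeq2 1.42.0, limma 3.58.1, other scalings, filters and thresholds, and left out each library.

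The 8 genes and the gene lists were chosen with earlier results of these data known. Of the list of glutamine, glutamate and arginine metabolism, ODC1 alone is reported here. Named genes were the 8 transporters, in each list the called genes with the 3 smallest p-values in each direction, the regulators ATF4, DDIT3, ATF3, TRIB3, ASNS, NFE2L2 and KEAP1, the highest and lowest marker of each cell type, and the 2 genes most like SLC7A11.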

Additional observations from a re-analysis of the deposited data

Results flagged for a closer look

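Reads that were assigned to no gene enter no comparison of the transporter genes, and their share was higher in the ASO_LINC#3 libraries than in every control. They made up 28%, 28.1% and 27.9% of the ASO_LINC#3 libraries 1, 2 and 3, and 24.8% to 26.3% of the ASO_CTRL libraries. The part of this difference in the changes of the transporter genes was not tested.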

How the results depend on the processing

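Over 11 other settings and 6 fits without a library, the 136 values of the 8 transporter genes were all above 0. Of these, 128 stayed on the same side of the thresholds, 8 passed only under the alternative (SLC38A1 and SLC38A2) and 0 were lost. SLC7A11 had 1.38 to 1.53 in the other settings and 1.41 to 1.69 without a library (edgeR adjusted p up to 0.0049). The number of transporter genes called was 3 with DESeq2, 3 at an adjusted p below 0.05, 2 with GC content and length removed, 2 with the replicate block as well, and 1 to 3 without a library. Over all genes DESeq2 called 634 lower. At an adjusted p below 0.05, 2465 genes were called, 1422 higher and 1043 lower. With GC content and length removed 1689 were called, 685 of them lower. Without a library 359 to 2616 were called, 249 to 1430 higher and 110 to 1186 lower. With the replicate number as a block 656 were called, 439 higher and 217 lower. Same-numbered libraries did not deviate together (r = 0.06, −0.15 and −0.18), and only number 1 matched its own best, so the numbers were not taken as pairs. Without a library the difference in log2 ratio was 0.99 to 1.31 for SLC7A11/SLC3A2, −0.01 to 0.26 for SLC7A5/SLC3A2, 0.17 to 0.45 for SLC1A4/SLC1A5 and −0.05 to 0.39 for SLC38A2/SLC38A1. SLC7A5/SLC3A2 turned to −0.01 without ASO_LINC#3 replicate 3, and SLC38A2/SLC38A1 to −0.05 without it and to −0.03 without ASO_CTRL replicate 1. Per kilobase of the longest transcript, the level in ASO_CTRL and ASO_LINC#3 was 61.5 and 81.4 CPM for SLC3A2, 2.96 and 5.41 for SLC38A2 and 0.730 and 1.06 for SLC1A4, and 6.85 in ASO_CTRL for SLC38A1. The cause of these changes was not tested, apart from the length used and the number of libraries. SLC1A4, with 25 to 44 reads per library, is limited most by depth.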
